A study of Mus musculus with 6 samples.

Results

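The miR-130 and miR-301 family was followed in small RNA libraries of mouse intestine, from pups with experimental necrotizing enterocolitis (NEC) and from Control pups. Its members were taken by name, as the 3p arms that share a seed and the 5p arms of the same hairpins, and 7 miRNAs of the 604 in the deposited table were found: mmu-miR-130a-3p, mmu-miR-130b-3p, mmu-miR-301a-3p, mmu-miR-301b-3p, mmu-miR-130b-5p, mmu-miR-301a-5p and mmu-miR-301b-5p, written below without the species prefix. The family was proposed with differences between NEC and Control in these libraries already known, among them that of miR-301b-5p, so the values of NEC against Control are a description here and carry no test. There were 3 NEC and 3 Control libraries. All pups were wild type C57BL/6J mice, and the tissue is labelled intestine. From day 5 and over 96 h, NEC pups received 40 μl of 33% Esbilac formula by gavage every 4 h, with PBS named in their treatment label. Every 12 h they were exposed to 99.9% N2 for 100 s and then to 4 °C for 10 min. Control pups, whose treatment label reads PBS, stayed with the dam without hypoxia or cold. NEC here is thus a combined feeding, hypoxia and cold model, and whether separate pups gave the libraries is not stated, so that the spread between libraries may be technical.

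A miRNA gene is transcribed into a hairpin, from which a duplex of a 5p and a 3p arm is cut. In most hairpins mainly a single arm is kept by Argonaute as the guide, and its seed, bases 2 to 8, sets which messages it represses. The miR-130 and miR-301 3p arms are the arms usually described as guides. They are known for repressing the adipocyte factor Pparg, and miR-301a-3p is known from inflamed intestine as a promoter of NF-κB activity.

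Mature sequences were found in RefSeq (GRCm38.p6) for 6 of the 7 members and are shown because the family is defined by them. The seed stands in capitals, and each sequence runs 5′ to 3′.
miR-130a-3p: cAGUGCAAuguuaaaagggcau
miR-130b-3p: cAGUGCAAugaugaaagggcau
miR-301a-3p: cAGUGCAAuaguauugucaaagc
miR-130b-5p: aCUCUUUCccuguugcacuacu
miR-301a-5p: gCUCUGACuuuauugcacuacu
miR-301b-5p: gCUCUGACuagguugcacuacu
miR-130a-5p, partner arm of miR-130a-3p and no listed member: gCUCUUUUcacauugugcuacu
The 3 3p arms shown share the seed AGUGCAA. In RefSeq 7 mature mouse miRNAs carry this seed, and 3 of them have a value in the table. miR-301b-3p, the member with no sequence found, is not in these counts. Counted from the 5′ end, miR-130a-3p and miR-130b-3p differ at 2 of 22 positions, U11A and A13G. The 5p arms hold other seeds. Those of miR-301a-5p and miR-301b-5p are the same, CUCUGAC, and these arms differ at 3 of 22 positions, U10A, U11G and A12G. The 5p members share their last 10 bases, uugcacuacu, and miR-130a-5p shares the last 5 with them. How reads matching more than 1 member were assigned is not stated in the sources, so values of such close relatives may not be fully separate. GC content was 39.1% to 50.0% in the 6 members with a sequence.

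The hairpins lie on 3 chromosomes of GRCm38. Mir130a is at chr2:84741115-84741178 on the minus strand, between annotated genes. Mir301, the miR-301a hairpin, is at chr11:87113004-87113089 on the plus strand, in an intron of Ska2, a gene of the spindle and kinetochore. Mir130b at chr16:17124061-17124142 and Mir301b at chr16:17124400-17124496 lie 257 bases apart on the minus strand, in an intron of the protein-coding 2610318N02Rik. Annotated exons overlapped none of the 4 hairpins (GENCODE M21).

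All values below are normalized log2 values as the authors deposited them, and a difference is a difference of such values. Which transformation was used is not stated, and low values lie close together, so that a difference need not be the fold change in reads. Counts were not used here, and depth per library is unknown. Median values were 4.78 to 5.01 in the 6 libraries. A miRNA was tested if its log2 value reached 3.32 (10 when back-transformed) in 3 or more libraries, as it did for 386 of 604 miRNAs and 5 of the 7 members. miR-301a-3p and miR-301b-3p reached this minimum in 2 libraries only. The library codes in the labels form 2 series, called code series here. NEC replicate 1 and Control replicate 3 belong to code series 2, and NEC replicates 2 and 3 and Control replicates 1 and 2 to code series 1. The labels do not say what separates the series, and with 2 libraries in series 2 a difference between them cannot be told apart from whatever else differed. Marker miRNAs of the tissue were abundant. The summed level of 7 epithelial miRNAs was 18.26 to 19.00 in NEC and 18.32 to 19.17 in Control. That of 4 miRNAs of smooth muscle and mesenchyme was 18.64 to 18.92 in NEC and 18.75 to 19.42 in Control. A marker of the pancreas, 1 of 2 listed with a value here, was at 1.27 at most. The liver marker miR-122-5p was not absent, at 6.30 to 7.58 in NEC and 5.73 to 6.37 in Control. The 2 neuron markers summed to 5.75 in NEC replicate 1 and to 2.41 at most in the other libraries.

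Among the 3p arms, miR-130a-3p, known from endothelium for promoting vessel growth, was the most abundant. Its values were 8.85, 8.10 and 8.001 in NEC replicates 1, 2 and 3, against 8.59, 8.60 and 8.91 in Control replicates 1, 2 and 3. The groups overlapped, because NEC replicate 1 lay above Control replicates 1 and 2, while NEC replicates 2 and 3 were the lowest of all 6. The mean was 8.32 ± 0.46 in NEC and 8.70 ± 0.18 in Control (SD, n = 3 each), a difference of -0.38 (standard error 0.30). It was -0.65 without NEC replicate 1 and -0.23 without NEC replicate 3. The difference was -0.06 between the libraries of code series 2 and -0.55 between those of code series 1.

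The 3p arm of the chromosome 16 pair, miR-130b-3p, was the most even member. It was at 7.49, 7.71 and 7.37 in NEC and at 7.66, 7.63 and 7.24 in Control, a range of 0.48 over all libraries. The groups lay within each other, with means of 7.53 ± 0.17 in NEC and 7.51 ± 0.23 in Control (SD, n = 3 each) and a difference of 0.02 (standard error 0.25).

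Both miR-301 3p arms were low in code series 1. miR-301a-3p was at 3.66, 1.58 and 1.30 in NEC replicates 1, 2 and 3 and at 1.55, 1.58 and 3.58 in Control replicates 1, 2 and 3. Its 2 high values were those of code series 2, 1 in each group. Among the 604 miRNAs it ranked 370 in NEC replicate 1 and 371 in Control replicate 3, and 499 to 523 in the other libraries, where miR-301b-3p ranked 413 to 447. miR-301b-3p had its high values in the same libraries, at a slightly higher level, with 4.21, 2.52 and 2.69 in NEC and 2.59, 2.86 and 3.61 in Control. NEC minus Control was -0.06 for miR-301a-3p and 0.12 for miR-301b-3p, small beside the SDs of 0.53 to 1.29 within the groups.

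**Figure D1:**
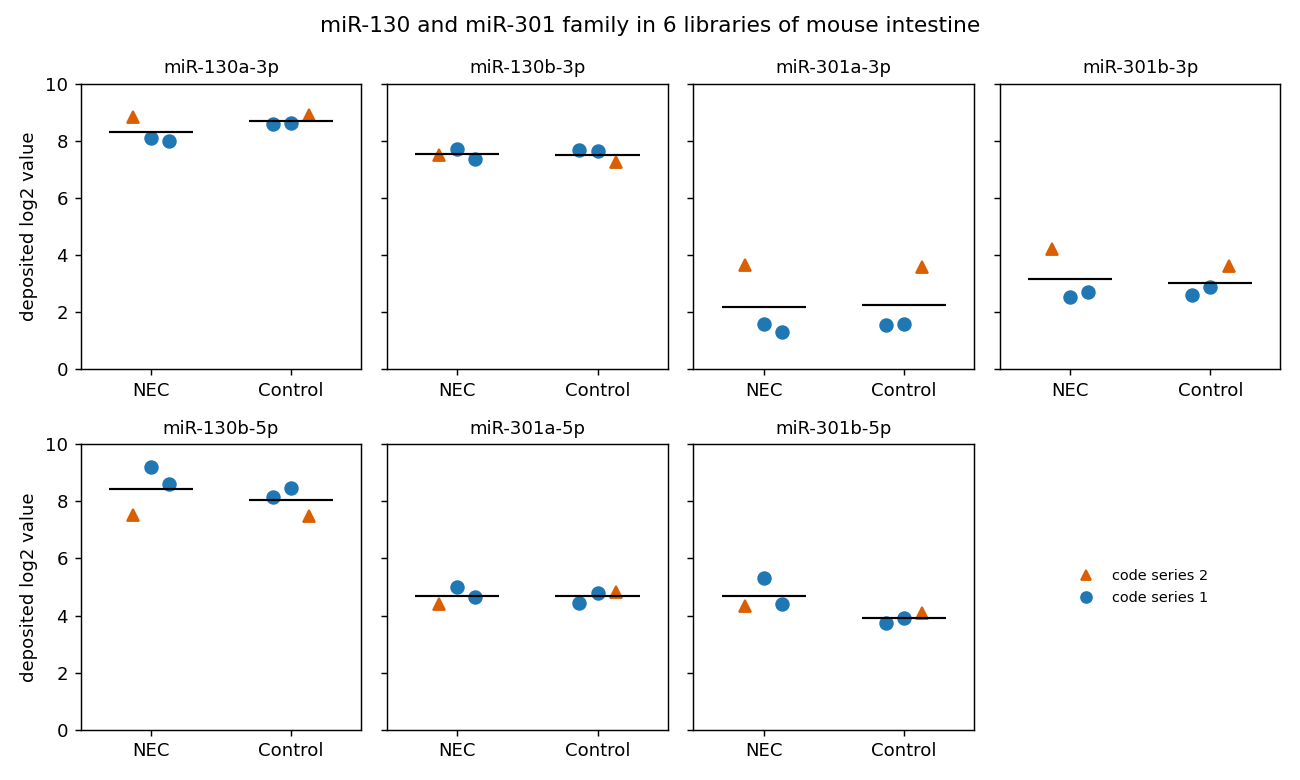
Deposited log2 values of the 7 members by group, with NEC left and Control right in each panel. Points are libraries (triangles code series 2, circles code series 1) and lines are group means. The triangles lie apart from the circles for miR-130a-3p, miR-301a-3p, miR-301b-3p and miR-130b-5p in both groups. For miR-301b-5p all NEC points (4.34 to 5.33) lie above all Control points (3.74 to 4.10).

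Of the 5p arms, miR-301b-5p had the largest difference between NEC and Control. It was at 4.34, 5.33 and 4.42 in NEC replicates 1, 2 and 3, against 3.74, 3.91 and 4.10 in Control. It was the 1 member of 7 whose groups did not overlap, where 9.84% of the tested miRNAs had no overlap (4.92% with NEC higher and 4.92% with NEC lower), and it was listed for its known difference between these groups. The groups lay 0.24 apart at their nearest in code series 2, where NEC replicate 1 was at 4.34 and Control replicate 3 at 4.10, and the difference in code series 1 was 1.05. Over all libraries the difference was 0.78 (standard error 0.33), and without NEC replicate 2, the highest library, it was 0.46.

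The neighbouring miR-130b-5p was more abundant and varied more. Its values were 7.53, 9.20 and 8.60 in NEC, against 8.16, 8.46 and 7.49 in Control. The lowest value of each group came from code series 2, and within code series 1 both NEC values lay above both Control values. The difference was 0.41 (standard error 0.47), made up of 0.05 in series 2 and 0.59 in series 1. It was 0.03 without NEC replicate 2 and 0.86 without NEC replicate 1, so that single libraries decided its size. miR-301a-5p, from the intron of Ska2, was at 4.41, 5.02 and 4.66 in NEC and 4.44, 4.80 and 4.82 in Control. Its group means were nearly equal, with a difference of 0.01 (standard error 0.27), made up of opposite values of -0.41 in series 2 and 0.21 in series 1. NEC replicate 2 held the highest value of 4 of the 7 members, miR-130b-3p and the 3 5p arms.

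NEC and Control were compared over all 386 miRNAs with limma on the deposited values, without a covariate. None of the tested members and 0% of the tested miRNAs passed an adjusted p under 0.05, and 11 miRNAs (2.85%) had an unadjusted p under 0.05. With the code series as a covariate again 0% passed in limma, and 70 (18.1%) had an unadjusted p under 0.05. The median difference over all tested miRNAs was 0.01, beside which the 5 tested members had differences of -0.38, 0.02, 0.41, 0.01 and 0.78 in the order miR-130a-3p, miR-130b-3p, miR-130b-5p, miR-301a-5p and miR-301b-5p. Of 5 leukocyte markers, 3 were in the table, and their summed level was 6.95 to 7.53 in NEC and 7.56 to 8.49 in Control. Single markers did not all follow this sum. NEC minus Control was -1.003 for miR-150-5p, which the paper lists as lower in NEC. It was -0.14 for miR-223-3p and 0.31, in the other direction, for miR-155-5p. The sum is therefore no measure of leukocyte number. The part of leukocytes in the family's values was not tested. In whole tissue fewer cells of a type and less RNA per cell cannot be told apart.

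In order of mean level over the 6 libraries the family fell into an upper and a lower set. miR-130a-3p (8.51), miR-130b-5p (8.24) and miR-130b-3p (7.52) formed the upper set and ranked 104 to 180 among 604 miRNAs. The lower set held miR-301a-5p (4.69), miR-301b-5p (4.30), miR-301b-3p (3.08) and miR-301a-3p (2.21). Between the sets lay a gap of 2.83 ± 0.29 (SD, n = 6) from miR-130b-3p to miR-301a-5p, with no overlap. Neighbours inside a set were closer. miR-130a-3p and miR-130b-5p differed by 0.27 ± 1.01 (SD, n = 6) and changed places in 2 libraries, and miR-301a-5p and miR-301b-5p differed by 0.39 ± 0.46 (SD, n = 6). Mature miRNAs have nearly 1 length, so these levels need no correction for it, but small RNA kits are known to capture different sequences unequally.

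On the back-transformed scale the 7 members together made up 421, 741 and 499 parts per 1000000 of all values in NEC replicates 1, 2 and 3, against 466, 662 and 415 in Control. Of the summed 3p members, miR-130a-3p held 68.5%, 55.7% and 59.5% in NEC and 64.7%, 65.1% and 73.3% in Control, and miR-130b-3p most of the remainder. miR-301a-3p and miR-301b-3p together never passed a few percent, the highest single share being 2.76% for miR-301b-3p in NEC replicate 1.

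The 4 hairpins differed in which arm was the more abundant. The 3p arm led in miR-130a only, and in the other 3 hairpins the 5p arm, usually taken as the passenger, was higher in all 6 libraries. In miR-130a the difference of the 3p from the 5p arm was 5.98, 4.68 and 4.34 in NEC and 4.28, 4.58 and 6.15 in Control, with a mean of 5.002 (standard error 0.30). In miR-130b it was -0.04, -1.48 and -1.23 in NEC and -0.50, -0.83 and -0.25 in Control, with a mean of -0.72 (standard error 0.21). Both passed in limma over the 92 hairpins with both arms tested, with adjusted p = 7.71e-07 for miR-130a and adjusted p = 0.0127 for miR-130b. An arm difference was common, since 82.6% of these hairpins passed, 42.4% with the 3p and 40.2% with the 5p arm higher.

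The 3p arms of miR-301a and miR-301b lay under the minimum, so these hairpins were fitted only without a filter, over 176 hairpins. For miR-301a the difference of the 3p from the 5p arm was -0.75, -3.43 and -3.36 in NEC and -2.89, -3.22 and -1.24 in Control, with a mean of -2.48 (standard error 0.39, limma adjusted p = 0.000277). The 2 values nearest to 0 came from code series 2. For miR-301b it was -0.12, -2.81 and -1.73 in NEC and -1.14, -1.05 and -0.48 in Control, with a mean of -1.22 (standard error 0.32, limma adjusted p = 0.00639). The largest excess of the 5p arm was in NEC replicate 2. As a share of both arms on the back-transformed scale, the 5p arm was 62.7% to 91.5% of miR-301a, 52.1% to 87.5% of miR-301b, 50.7% to 73.6% of miR-130b and 1.39% to 4.91% of miR-130a.

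The arm difference of miR-301b was -1.55 ± 1.35 in NEC and -0.89 ± 0.36 in Control (SD, n = 3 each), and that of miR-130b was -0.92 ± 0.77 in NEC and -0.53 ± 0.29 in Control (SD, n = 3 each). In miR-130a and miR-301a the means of NEC and Control were within 0.1 of each other, at 5.001 and 5.003 for miR-130a and at -2.51 and -2.45 for miR-301a. These values of NEC against Control overlapped in each hairpin and were not tested.

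**Figure D2:**
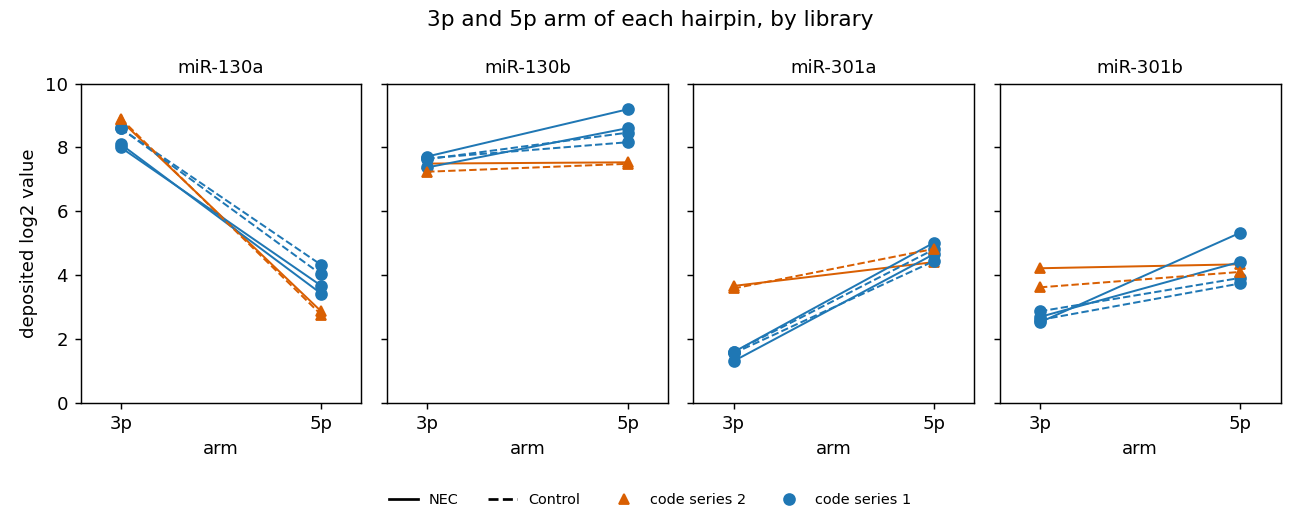
Deposited log2 values of the 3p (left) and 5p (right) arm of each hairpin, with 1 line per library, solid for NEC and dashed for Control. Lines fall from 3p to 5p in miR-130a (mean difference 5.002) and rise in the other 3 hairpins, and code series 2 (triangles) has flatter lines than code series 1 (circles) in miR-130b, miR-301a and miR-301b.

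As deposited, 6 of the 7 members, all but miR-301b-5p, differed more between the code series than between NEC and Control, and so did 76.4% of the 386 tested miRNAs. The code series was not used to choose the members, and it was tested in limma with the condition as a covariate. Of the 5 tested members, 2 passed an adjusted p under 0.05, 1 in each direction, against 57.5% of all tested miRNAs (25.4% higher and 32.1% lower in code series 2), so the family's share was not above that of all miRNAs. miR-130a-3p was higher in code series 2, at 8.85 and 8.91, than in code series 1, at 8.001 to 8.60, with a difference of 0.55 (standard error 0.16, adjusted p = 0.0236). miR-130b-5p was lower, at 7.49 and 7.53 in code series 2 and at 8.16 to 9.20 in code series 1, with a difference of -1.10 (standard error 0.22, adjusted p = 0.00510). The values of the series did not overlap for either, as for 68.1% of tested miRNAs (26.9% higher and 41.2% lower in code series 2). With NEC replicate 1 or Control replicate 3 left out, code series 2 is a single library, which is assumed to vary like those of code series 1. The call of miR-130a-3p was lost without NEC replicate 1 (0.31, adjusted p = 0.322), without NEC replicate 2 (0.54, adjusted p = 0.0540) and without NEC replicate 3 (0.50, adjusted p = 0.0630), and when libraries were shifted to a common back-transformed total (0.21, adjusted p = 0.397) or no covariate was used (0.55, adjusted p = 0.0656). That of miR-130b-5p was lost without NEC replicate 1 (-0.83, adjusted p = 0.0649).

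The other 3 tested members did not pass. The difference between code series 2 and code series 1 was -0.23 (standard error 0.17, adjusted p = 0.276) for miR-130b-3p, -0.12 (standard error 0.21, adjusted p = 0.663) for miR-301a-5p and -0.13 (standard error 0.29, adjusted p = 0.717) for miR-301b-5p, all in limma, and the last 2 changed sign with the scaling by median deviations. With a common back-transformed total the value of miR-130b-3p was -0.57 (adjusted p = 0.0384). miR-301a-3p and miR-301b-3p, fitted only without a filter, were higher in code series 2 by 2.11 (standard error 0.15) and by 1.25 (standard error 0.20). They reached the minimum for testing only in the 2 libraries of code series 2, where they are high, so these differences are a description with no test. The median over all tested miRNAs was -0.19. Epithelial markers summed to 19.00 to 19.17 in code series 2 and to 18.26 to 18.71 in code series 1, and endothelial markers, a pair of miR-126a arms, to 15.45 to 15.67 in series 2 and 14.87 to 15.12 in series 1. The 3 striated muscle markers summed to 11.51 to 11.96 in series 2 and to 10.45 to 11.07 in series 1. Single markers did not all follow these sums. Of the striated muscle markers, miR-1a-3p was higher in series 2 (1.17), while miR-133a-3p (-0.54) and miR-206-3p (-0.18) were lower. Of the epithelial markers, miR-200c-3p was lower (-0.72) and miR-200b-3p nearly level (0.03), while the others were higher. The part of these tissues in the family's difference was not tested.

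Because the arms of a hairpin come from the same library, adding a constant to all its log2 values leaves their difference unchanged. The transformation is not stated, however, and low values lie close together. The arm difference may therefore still depend on scaling or depth where an arm is low, as in miR-130a, miR-301a and miR-301b. The arm difference was larger in code series 2, by 1.60 (standard error 0.22) for miR-130a, with means of 6.07 in series 2 and 4.47 in series 1. The hairpin of miR-130a was tested only because miR-130a-5p reached the minimum in the 4 libraries of code series 1, where it is high, so this value is a description with no test. For miR-130b the 3p minus 5p value was higher by 0.87 (standard error 0.25, adjusted p = 0.00740). Its means were -0.14 in series 2 and -1.01 in series 1, so these arms lay closer together in series 2. The test is from limma over 92 hairpins, of which 53.3% passed, 22.8% in this direction and 30.4% in the other. Without NEC replicate 1 the value of miR-130b was 0.42 (adjusted p = 0.324), and without Control replicate 3 it was 1.32. In the fit without a filter the shift was 2.23 (standard error 0.25) for miR-301a and 1.38 (standard error 0.37) for miR-301b. Their 3p arms reached the minimum only in the libraries of code series 2, so these shifts too are a description with no test. All 4 hairpins of the family lay on the side of relatively more 3p arm in code series 2. Of the 92 tested hairpins 39 did so, but miR-301a and miR-301b are not among these, so the 2 counts are not alike. Only the shift of miR-130b carries a test here.

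**Figure D3:**
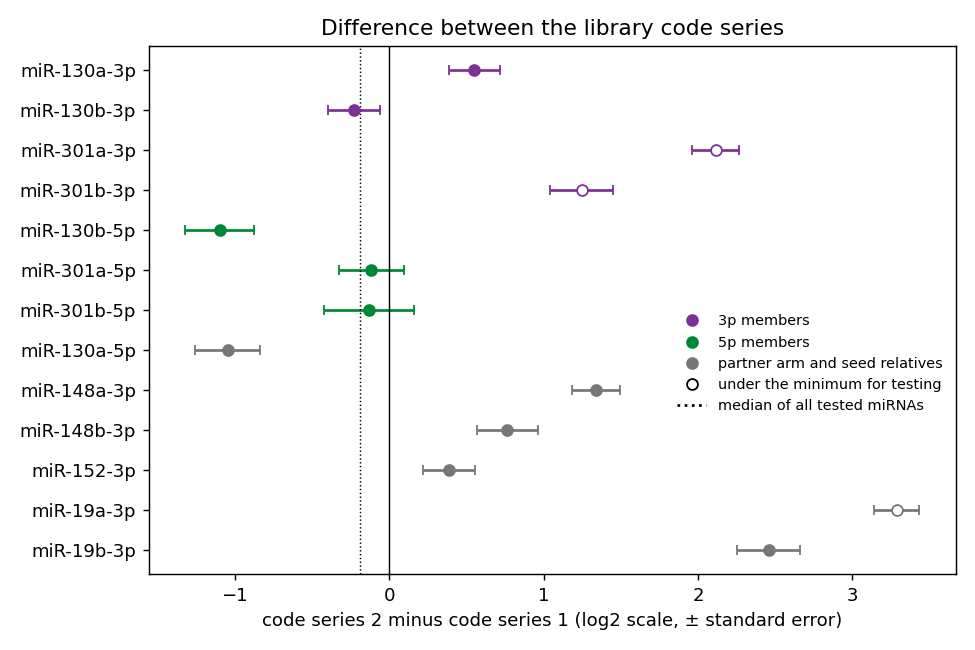
Difference of code series 2 minus code series 1 for the 7 members, the partner arm miR-130a-5p and 5 seed relatives, with bars of 1 standard error from limma. Open points lay under the minimum and come from the fit without a filter, and the dotted line is the median of all tested miRNAs (-0.19). miR-301a-3p (2.11) and miR-301b-3p (1.25) lie right of every other member, and miR-130b-5p (-1.10) and miR-130a-5p (-1.05) lie farthest left.

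Of 10 partner arms and seed relatives listed, 6 had a value in the table, and 5 of them share 6 or 7 bases with the start of miR-130a-3p, set off by a base. Some are shown with the run shared with miR-130a-3p in capitals, because they are the nearest in seed among the listed relatives that have a value in the table.
miR-19b-3p: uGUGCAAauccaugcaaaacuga
miR-148a-3p: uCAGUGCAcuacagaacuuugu
miR-152-3p: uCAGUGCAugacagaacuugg
The miR-19 miRNAs belong to the proliferation-linked miR-17-92 cluster, and miR-148a-3p is abundant in epithelium. miR-19b-3p was at 7.40, 4.50 and 4.61 in NEC and 5.08, 4.86 and 7.04 in Control, and both high libraries were of code series 2. Its difference between the series was 2.46 (standard error 0.20, limma adjusted p = 0.000123). The related miR-19a-3p, under the minimum for testing, was at 6.47 and 6.39 in code series 2 and at 3.01 to 3.23 in code series 1. miR-148a-3p differed by 1.34 (standard error 0.15, limma adjusted p = 0.000597) and miR-148b-3p by 0.77 (standard error 0.20, limma adjusted p = 0.0130), while miR-152-3p had a value of 0.39 (standard error 0.17, limma adjusted p = 0.0846). Of the 4 such miRNAs tested, 3 were thus higher in code series 2, where 25.4% of all tested miRNAs were. NEC minus Control was -0.16 for miR-19b-3p, 0.34 for miR-148a-3p, -0.05 for miR-148b-3p and -0.09 for miR-152-3p, and none of them passed in limma.

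The partner arm miR-130a-5p was at 2.86, 3.42 and 3.67 in NEC and at 4.32, 4.02 and 2.76 in Control. Like miR-130b-5p it was lowest in the libraries of code series 2, with a difference of -1.05 (standard error 0.21). It reached the minimum for testing in 4 libraries only, those of code series 1, where it is high, so this difference is a description with no test.

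Outside the family, the miRNA whose values ran most like those of each tested member was found by Pearson's r over the 6 libraries, given as a description because the libraries share the code series. It was miR-17-5p for miR-130a-3p (r = 0.98), miR-669c-5p for miR-130b-3p (r = 0.98), miR-329-5p for miR-130b-5p (r = 0.99), miR-1964-3p for miR-301a-5p (r = 0.93) and miR-704 for miR-301b-5p (r = 0.94). With the mean of each code series taken out, miR-669c-5p and miR-1964-3p stayed nearest to their members, while miR-375-3p, a miRNA of enteroendocrine cells, was nearest to both miR-130b-5p (r = 0.98) and miR-301b-5p (r = 0.99). Within the family, the 5p arms of the neighbouring miR-130b and miR-301b hairpins had r = 0.60 on the deposited values and r = 0.98 with the series means taken out, and miR-130a-3p and miR-130b-5p ran in opposite directions (r = -0.88 on the deposited values).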

How the data were processed

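Small RNA libraries of mouse intestine, 3 NEC and 3 Control, were read by the authors as 50 nt single-end reads. The authors deposited 1 table of normalized log2 values for 604 miRNAs, with 1 column per library, matched here by the library code of the labels, and 0 columns were left unmatched. The submitters' processing notes name the build mm10, while the aligner, the counting tool, the annotation of miRNAs and the transformation were not stated.

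Values were compared as deposited with limma (version 3.58.1, R version 4.3.3), in two-sided tests, and p-values were adjusted by Benjamini-Hochberg over the 386 miRNAs that reached 3.32 on the log2 scale in 3 or more libraries, or over the 92 hairpins with both arms so tested. The arm difference is the 3p minus the 5p value of a library. Counts were not used here, so no counting interval is given, and the count model planned for them was not fitted. The fits were tested on simulated data. The miRNAs named are the listed members, the partner arm and seed relatives, and for each tested member the miRNA with the largest Pearson's r. Members and lists were chosen with earlier results of these data known. Sequences are from RefSeq and hairpin surroundings from GENCODE M21.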

Additional observations from a re-analysis of the deposited data

Results flagged for a closer look

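The difference of the 3p from the 5p arm differed between the library code series in both family hairpins with 2 arms past the minimum. The 3p minus 5p value was higher in code series 2 by 1.60 for miR-130a and by 0.868 for miR-130b. For miR-130a the means were 6.07 in series 2 and 4.47 in series 1. For miR-130b they were -0.14 in series 2 and -1.01 in series 1, so its arms lay closer together in series 2. The adjusted p of miR-130b was 0.00740 in limma over 92 hairpins. The miR-130a hairpin entered this test only because miR-130a-5p reached the minimum in the 4 libraries of code series 1, where it is high, so its value is a description with no test. The NEC and Control libraries of a series lay on the same side in both hairpins. Of the 92 hairpins 53.3% passed in this comparison of the series. Without NEC replicate 1 the difference between the series was 0.42 for miR-130b.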

How the results depend on the processing

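Settings changed were the minimum (none, or 5.64 on the log2 scale), a robust fit, shifts of each library by median deviation, 75th percentile or total, added constants of 1 and 5 on the back-transformed scale, the covariates, and leaving out each library. Of 386 miRNAs tested, 0 passed between NEC and Control under these settings in limma, except 2 in code series 1 alone, neither of them a member. Between the code series 222 passed, and 118 to 210 when a library was left out (118 without NEC replicate 1, 133 without Control replicate 3). Arm differences passed in 76 hairpins, with 154 of 176 without a filter and 43 of 54 at the stricter minimum. Differences of arms between the series passed in 49, with 87 and 29 under these filters. The code series difference of miR-301a-5p (-0.12) and miR-301b-5p (-0.13) was 0.044 and 0.029 after the median shift, and -0.43 to 0.20 and -0.54 to 0.27 when a library was left out. The arm differences of miR-130a and miR-130b kept direction and call in each setting run, which for miR-130a left out the stricter minimum, where the hairpin was not tested. The difference of miR-301b-5p between NEC and Control stayed positive, at 0.46 to 1.05. The cause of these changes was not tested. Same-numbered NEC and Control libraries deviated together only for number 2 (r = -0.69, 0.73 and -0.78 for numbers 1, 2 and 3). Number 2 is the only number with both libraries in 1 code series. Over all pairs of an NEC and a Control library, r was 0.57 to 0.87 within a series and -0.78 to -0.69 across series. Numbers were not taken as pairs, and with the replicate number as a block 0 miRNAs passed. Depth is unknown, and miRNAs near 3.32 or below are limited by it.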

Other observations

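NEC replicate 2 and Control replicate 2 had exactly equal values in 62 of the 604 miRNAs, miR-301a-3p among them (1.58 in both), while no other pair of libraries shared a value.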
